A study of Mus musculus with 7 samples.

Results

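The 36 genes described here encode proteins of G2 phase and mitosis, from the cyclins and kinases that start division to the spindle, the checkpoint and the machinery of cell separation. They were chosen by name, as the rows of the deposited count table whose Ensembl identifiers carry the listed gene symbols, and all 36 symbols were found among 51789 rows. The table holds 7 libraries of mouse granulocytes, the leukocyte class of neutrophils, eosinophils and basophils. Alox15, which encodes a lipoxygenase that oxygenates polyunsaturated fatty acids, was intact in 4 libraries (wild type) and knocked out in 3, and all 7 were labelled untreated. The title of the series concerns ferroptosis of neutrophils in tumours. Neither the labels nor the design text give the organ, the sort, the strain, the age or how Alox15 was disrupted. They also do not say that replicates are separate animals, so a p-value speaks only to the spread among the 7 libraries, which may be technical.

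Cells enter mitosis when cyclin B and the kinase CDK1 become active, and leave it when the anaphase promoting complex, switched on by CDC20, marks cyclins and the sister chromatid lock for destruction. Transcripts of these genes accumulate late in the cell cycle, under the MuvB complex with B-MYB and FOXM1 and under the CCAAT-binding factor NF-Y, and are low in cells that do not divide. Mature neutrophils have left the cell cycle, and division in that lineage belongs to its precursors in the bone marrow.

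Promoter sequences were found in the RefSeq table (GRCm38.p6) for 29 of the 36 members. They were searched for the letters of the cell cycle genes homology region, TTTGAA or TTCGAA, and of the NF-Y box, CCAAT, on both strands in the 250 bases before the annotated start. CCAAT occurred in 24 of 29 member promoters, or 82.8%, and in 34.5% of the 27025 gene promoters in the table. TTTGAA or TTCGAA occurred in 12 of 29, or 41.4%, and in 17.4% of all promoters. At least 2 CCAAT boxes were present in 58.6% of the member promoters and in 10.5% of all. A match is a run of letters and not a measured binding site. The 200 bases before the start are shown for the 5 members with the widest span between libraries among those with a mean of at least 20 CPM (a gene's count relative to the scaled total of its library) and a sequence in the table. Top2a and Ccnb2 were added after the motif positions were seen, as examples of several CCAAT boxes. Capitals mark the searched letters on either strand (TTTGAA reads TTCAAA and CCAAT reads ATTGG on the opposite strand), and each match was counted where the 2 strands overlap, as in CCAATTGG of Ube2c.
Mad2l1, chr6:66535021-66535220, plus strand: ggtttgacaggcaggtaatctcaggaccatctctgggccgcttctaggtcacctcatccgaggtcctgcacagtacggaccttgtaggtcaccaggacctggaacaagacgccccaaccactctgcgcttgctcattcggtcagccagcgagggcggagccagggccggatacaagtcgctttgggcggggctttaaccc
Ube2c, chr2:164769729-164769928, plus strand: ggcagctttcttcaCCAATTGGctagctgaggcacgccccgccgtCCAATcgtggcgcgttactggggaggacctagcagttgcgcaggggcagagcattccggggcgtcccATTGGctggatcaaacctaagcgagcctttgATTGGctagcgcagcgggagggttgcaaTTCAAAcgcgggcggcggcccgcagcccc
Cdk1, chr10:69352913-69353112, minus strand: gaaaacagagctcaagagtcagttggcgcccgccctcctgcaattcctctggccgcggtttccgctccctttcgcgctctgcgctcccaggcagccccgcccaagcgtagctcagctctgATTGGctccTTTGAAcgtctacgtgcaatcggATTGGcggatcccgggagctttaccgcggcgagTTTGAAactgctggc
Bub1b, chr2:118598011-118598210, plus strand: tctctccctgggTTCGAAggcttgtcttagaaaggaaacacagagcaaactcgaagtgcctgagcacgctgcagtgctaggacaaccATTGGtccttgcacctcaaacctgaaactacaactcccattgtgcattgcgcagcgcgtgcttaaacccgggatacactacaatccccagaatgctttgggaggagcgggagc
Birc5, chr11:117849037-117849236, plus strand: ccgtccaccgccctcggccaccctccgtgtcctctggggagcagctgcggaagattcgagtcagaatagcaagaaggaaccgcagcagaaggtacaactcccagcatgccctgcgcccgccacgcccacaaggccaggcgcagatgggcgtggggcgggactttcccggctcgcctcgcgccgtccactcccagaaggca
Top2a, chr11:99024190-99024389, minus strand: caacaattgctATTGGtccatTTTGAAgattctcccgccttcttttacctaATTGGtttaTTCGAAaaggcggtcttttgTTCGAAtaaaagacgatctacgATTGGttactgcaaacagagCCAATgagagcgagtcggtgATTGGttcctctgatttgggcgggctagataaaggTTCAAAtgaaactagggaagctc
Ccnb2, chr9:70421555-70421754, minus strand: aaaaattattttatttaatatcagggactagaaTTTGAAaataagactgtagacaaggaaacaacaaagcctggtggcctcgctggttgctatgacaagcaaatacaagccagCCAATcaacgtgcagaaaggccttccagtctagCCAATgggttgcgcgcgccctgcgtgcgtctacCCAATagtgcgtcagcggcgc
The printed stretches of Ube2c, Cdk1, Bub1b, Top2a and Ccnb2 held both kinds of letters, with 5, 2, 1, 5 and 3 CCAAT matches in that order. Those of Mad2l1 and Birc5 held neither. The starts are those of the RefSeq table, and the GENCODE M21 annotation places some elsewhere. There Mad2l1 starts at 66535390, past the end of its printed stretch, so the bases next to that start were not searched. Birc5 starts there at 117849251, a little past the end of its stretch at 117849236, and the bases between were not searched. For 20 of the 29 promoters, the bases just after the RefSeq start were found in a GENCODE transcript of the gene.

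Total counts ran from 3228292 to 5657192 per library, and the 36 genes had at least 14 counts each in every library. They took 0.478% (Wilson 95% interval 0.471 to 0.485%) of all counts in wild type 1, 1.09% (1.08 to 1.09%) in wild type 2, 0.769% (0.761 to 0.776%) in wild type 3 and 1.08% (1.07 to 1.09%) in wild type 4. In knockouts 1, 2 and 3 they took 0.542% (0.535 to 0.548%), 0.759% (0.750 to 0.769%) and 1.09% (1.08 to 1.10%). The shares are lowest in wild type 1 and knockout 1 and overlap between the genotypes, and the intervals cover counting error only. Without Tuba1b, Tubb5, Hmgb2 and Stmn1, 4 abundant members, the shares were 0.234, 0.568, 0.402 and 0.466% in wild types 1 to 4 and 0.268, 0.443 and 0.498% in knockouts 1 to 3, with the same 2 libraries lowest.

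Alox15 itself did not check the labels: it had 0 counts in each of the 4 wild-type libraries, which allows up to 0.165 CPM over the group by the limit of 3 counts, and 1, 0 and 0 counts in the knockouts. Knockouts 2 and 3 differ from the other 5 libraries in the stem of the sample description and in high Xist (382 and 102 CPM, against 0.896 to 6.11 CPM elsewhere). The Y-linked gene Ddx3y was at 0.306 and 0.195 CPM in these 2 knockouts and at 19.3 to 119 CPM in the other 5 libraries. The labels give neither the sex of the animals nor what the stem marks. In knockouts 2 and 3, genotype cannot be told apart from sex-linked expression or the stem, which only knockout 1 shares with wild type. Mature neutrophil markers, 9 genes that include Cxcr2 and Mmp9, summed to 26120, 2525, 10900 and 11850 CPM in wild types 1 to 4 and to 22560, 14260 and 1983 CPM in knockouts 1 to 3. All 9 were detected in all libraries, and in each genotype 1 library fell far below the others of its group. Markers of other cells were also present. The 10 T cell markers, 8 to 10 of them detected per library, summed to 526 to 1214 CPM in wild type and 646 to 1480 CPM in knockout. The 8 macrophage markers, all detected, summed to 148 to 494 and 188 to 1032 CPM, and the 6 B cell markers, 3 to 6 of them detected, to 120 to 461 and 225 to 354 CPM. Stromal and epithelial markers summed to 67.1 to 192 and 124 to 207 CPM with Epcam at 0. The 4 of this list that were tested and all 8 macrophage markers had edgeR log2 fold changes above 0, as did 51.4% of all genes. In 2 of the 4 stromal genes all knockouts were above all wild types (1.57% of all genes). At an unadjusted p under 0.05, 2 of the 4 were higher (0.448% of all genes), and 0 were called after adjustment. Cytotoxic markers summed to 25.7 to 99.3 and 33.8 to 102 CPM with Ncr1 at 0, and dendritic cell markers to 10.2 to 44.1 and 12.7 to 24.2 CPM with Clec9a at 0. Markers of the dividing neutrophil precursors were low. Elane and Ms4a3 had 0 counts in all libraries, and 6 such markers summed to 0.313 to 3.38 CPM in wild type and 0.584 to 9.33 CPM in knockout. The highest sum, 9.33 CPM in knockout 1, came from 1 detected gene of the 6. Eosinophil markers summed to 1.25 to 17.9 and 1.17 to 13.6 CPM, and basophil and mast cell markers to 1.79 to 24.7 and 5.45 to 13.6 CPM, with the defining genes Epx, Mcpt8 and Ms4a2 at 0 in all libraries.

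The 1 contrast that the labels give is knockout against wild type, read here for transcripts of the division machinery. None of the 36 members passed edgeR's quasi-likelihood test with Benjamini-Hochberg adjustment over 12506 genes (adjusted p = 0.99995 for each), and 0% of all genes passed. Of the members, 13 had a fitted log2 fold change above 0 and 23 below, where 51.4% of all tested genes lay above 0. Their median log2 fold change was -0.07, beside 0.01 over all tested genes. At an unadjusted p under 0.05 there were 0 members in either direction in edgeR, DESeq2 and limma-voom, and 0.448% of all genes were higher and 0.784% lower at that level in edgeR. In 0 members did the 3 knockout values all lie above or all below the 4 wild-type values, against 1.57% of all genes higher and 1.57% lower. The standard errors of the 18 members described singly ran from 0.28 to 0.58 on the log2 scale, so a p that misses the threshold does not show equal levels.

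**Figure D1:**
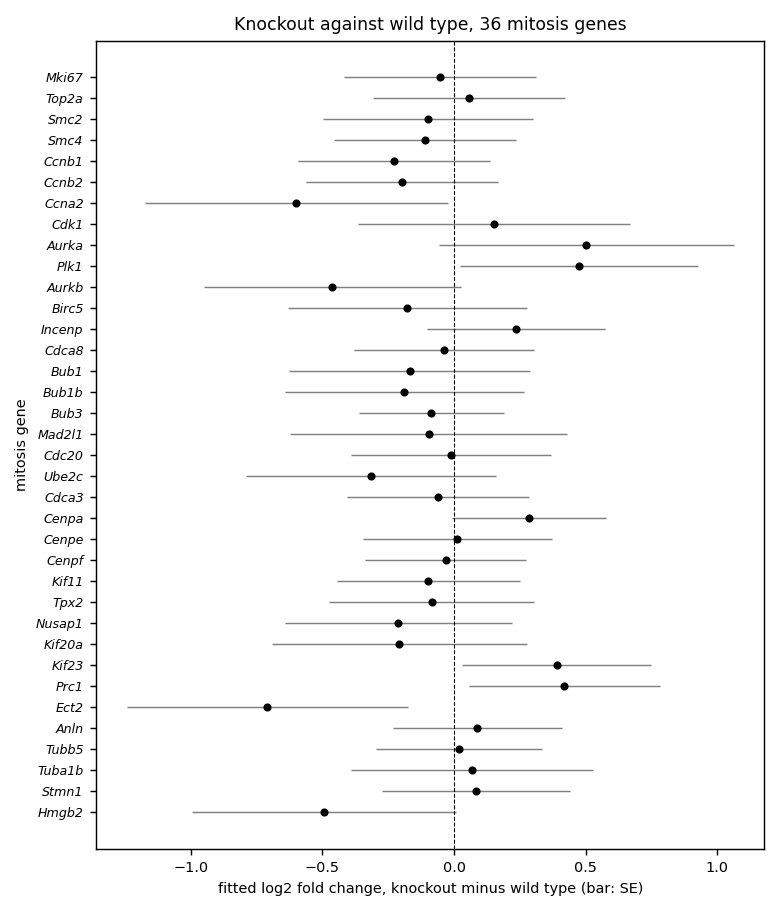
Fitted log2 fold change (x axis, knockout minus wild type) of each of the 36 mitosis genes (y axis, ordered by role), with bars for the standard error. The values run from -0.71 for Ect2 to 0.50 for Aurka, and none passed the test.

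Mki67, the marker of cycling cells whose product coats mitotic chromosomes (ENSMUSG00000031004, minus strand of chromosome 7, 135689784 to 135716361, GRCm38), stood at 214.5, 446, 295 and 444 CPM in wild types 1 to 4. In knockouts 1 to 3 it stood at 222, 362 and 427 CPM. Wild type 1 and knockout 1 formed the low pair and the ranges overlap almost completely, with means of 350 ± 115 CPM (SD, n = 4) for the wild types and 337 ± 105 CPM (SD, n = 3) for the knockouts. The log2 fold change was -0.05 ± 0.36 (SE).

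Among the genes that untangle and compact chromosomes, Top2a, the topoisomerase that separates sister DNA, was at 600, 1091, 980 and 1184 CPM in the 4 wild types and 655, 1220 and 1134 CPM in the 3 knockouts. Its log2 fold change was 0.06 ± 0.37 (SE). The same low pair appears, with the other 5 libraries between 980.1 and 1220 CPM. The condensin subunits Smc2 and Smc4, which fold chromosomes into compact rods, ranged over 125 to 318 CPM in wild type and 130 to 306 CPM in knockout and over 163 to 353 CPM in wild type and 182.5 to 308 CPM in knockout. All 3 genes of this role had their lowest value in wild type 1.

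For the drivers of mitotic entry, Cdk1, the kinase that cyclin B activates (ENSMUSG00000019942, minus strand of chromosome 10, 69335146 to 69352938), was at 85.5, 245, 171 and 263 CPM in the wild types and 129, 116 and 393 CPM in the knockouts. Knockout 3 alone was above the wild-type range and the other knockouts lay inside it, with a log2 fold change of 0.15 ± 0.52 (SE). Ccna2, the cyclin A of S phase and G2 (ENSMUSG00000027715, minus strand of chromosome 3, 36564865 to 36572150), spanned 8.57-fold over the libraries, the widest span of the 36. It had 5.98, 51.2, 34.2 and 31.5 CPM in wild types 1 to 4 and 22.6, 18.4 and 20.1 CPM in knockouts 1 to 3. The knockouts sat close together between the low wild type 1 and the other 3 wild types. The log2 fold change was -0.60 ± 0.58 (SE) with an unadjusted p of 0.324, and -0.95 (unadjusted p = 0.0229) without wild type 1, where 2.49% of all genes were under an unadjusted p of 0.05 and 0 members were called after adjustment. Without wild type 2, the highest library for Ccna2, it was -0.23 (unadjusted p = 0.703 in edgeR), so its size depended on single wild-type libraries. The B cyclins Ccnb1 and Ccnb2 ranged over 34.4 to 85.2 CPM in wild type and 45.9 to 76.5 CPM in knockout and over 64.8 to 144 CPM in wild type and 60.9 to 105 CPM in knockout.

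Aurka and Plk1, the kinases of centrosomes and spindle poles, both had fitted values above 0. Plk1, polo-like kinase 1, which acts in centrosome maturation and cytokinesis, was at 73.8, 118, 78.5 and 168 CPM in the wild types and 73.5, 126 and 257 CPM in the knockouts. Its log2 fold change was 0.47 ± 0.45 (SE), and -0.21 without knockout 3, the highest library. Aurka, the centrosomal Aurora kinase, ranged over 4.18 to 17.7 CPM in wild type and 8.36 to 24.9 CPM in knockout.

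The chromosomal passenger complex corrects wrong attachments of chromosomes to the spindle. Its kinase Aurkb had 8.07, 26.3, 26.2 and 12.2 CPM in the wild types and 12.4, 15.3 and 12.1 CPM in the knockouts, where wild types 2 and 3 stood above all other libraries (log2 fold change -0.46 ± 0.49 SE). Birc5, which encodes survivin, was at 53.8, 107, 75.3 and 118 CPM and 30.1, 94.6 and 111 CPM. Knockout 1 was the lowest library and the other 2 knockouts lay within the wild-type range, with a log2 fold change of -0.18 ± 0.45 (SE). Incenp, the scaffold of the complex, was at 116, 187, 146 and 150 CPM and 100.5, 183.5 and 245 CPM, with knockout 1 below the wild-type range, knockout 2 inside it and knockout 3 above it (log2 fold change 0.24 ± 0.34 SE). Cdca8, or borealin, ranged over 63.4 to 137 CPM in wild type and 64.5 to 129 CPM in knockout.

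The spindle assembly checkpoint holds anaphase until every chromosome is attached, and all 4 of its members here were highest in wild type 2. Bub3, which carries the checkpoint kinases to kinetochores, was the steadiest of the 36, with a 1.65-fold span. It had 133, 220, 205 and 175.5 CPM in the wild types and 143, 182 and 194 CPM in the knockouts (log2 fold change -0.09 ± 0.28 SE). Bub1 and Bub1b, the checkpoint kinase and its relative BUBR1, ranged over 8.96 to 33.5 CPM in wild type and 15 to 22.2 CPM in knockout and over 56.5 to 119 CPM in wild type and 28.0 to 104 CPM in knockout. Mad2l1, the inhibitor that binds CDC20, ranged over 9.86 to 62.3 CPM in wild type and 33.7 to 49.4 CPM in knockout. Wild type 1 was low for Mad2l1 at 9.86 CPM, while knockout 1 was not.

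Of the genes of protein breakdown, Cdc20, the activator of the anaphase promoting complex and target of the checkpoint, stood at 71.4, 133, 90.2 and 160 CPM in the wild types and 73.1, 98.0 and 167 CPM in the knockouts. The mean levels were 113.5 ± 40.1 CPM (SD, n = 4) for the wild types and 113 ± 48.6 CPM (SD, n = 3) for the knockouts, and the log2 fold change was -0.01 ± 0.38 (SE). Ube2c, the ubiquitin-conjugating enzyme of that complex, ranged over 32.3 to 160 CPM in wild type and 58.3 to 99.5 CPM in knockout, and Cdca3, which promotes the breakdown of WEE1, over 32.4 to 67.2 CPM in wild type and 33.1 to 49.9 CPM in knockout.

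At the centromere, Cenpa, the histone H3 variant that marks it, was at 60.7, 86.8, 72.3 and 62.5 CPM in the wild types and 57.4, 104 and 96.2 CPM in the knockouts. Knockouts 2 and 3 were above the 4 wild types and knockout 1 was below them (log2 fold change 0.28 ± 0.29 SE). Cenpf, a large kinetochore protein, was at 106, 168, 123 and 175 CPM and 100, 138 and 182 CPM, with a log2 fold change of -0.03 ± 0.31 (SE). Cenpe, the kinetochore motor, ranged over 72.9 to 149 CPM in wild type and 69.8 to 162 CPM in knockout. All 3 had their lowest value in knockout 1.

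Of the spindle genes, Nusap1, which bundles microtubules near chromosomes, was at 93.8, 200, 104 and 180 CPM in the wild types and 58.1, 131 and 185 CPM in the knockouts (log2 fold change -0.21 ± 0.43 SE). The motor gene Kif11 ranged over 46.3 to 86.8 CPM in wild type and 37.1 to 79.5 CPM in knockout, and Tpx2, the activator of Aurora A on the spindle, over 50.2 to 114 CPM in wild type and 41.8 to 111 CPM in knockout. Each of the 3 was lowest in knockout 1 and highest in wild type 2.

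Cytokinesis separates the daughter cells at the central spindle. Kif23, the motor of the centralspindlin complex, had 71.1, 94.3, 91.6 and 59.8 CPM in the wild types and 112, 146 and 53.6 CPM in the knockouts. It was the 1 member with its lowest value in knockout 3, and knockout 1 lay above the wild-type range (log2 fold change 0.39 ± 0.36 SE). Without wild type 2 and knockout 3 its log2 fold change was 0.75 (unadjusted p = 0.0485), the only member under 0.05 there, beside 2.82% of all genes, and 0 members passed after adjustment. That setting leaves out the lowest library for Kif23. Without knockout 2, the highest, the log2 fold change was 0.06 (unadjusted p = 0.88 in edgeR). Prc1, which crosslinks the central spindle, was at 26.9, 63.9, 44.3 and 67.5 CPM and 52.3, 65.5 and 85.5 CPM, with a log2 fold change of 0.42 ± 0.36 (SE).

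Ect2, the exchange factor that activates RHOA at the cleavage furrow (ENSMUSG00000027699, minus strand of chromosome 3, 27097222 to 27153878), had the smallest unadjusted p of the 36 (0.216). It was at 6.28, 32.1, 22.2 and 14.0 CPM in the wild types and 11.9, 11.0 and 11.5 CPM in the knockouts. The 3 knockouts lay close together, below wild types 2, 3 and 4 and above wild type 1. The log2 fold change was -0.71 ± 0.54 (SE), and -1.01 (unadjusted p = 0.0464) without wild type 1, the lowest library for this gene. In that setting 2.49% of all genes were under an unadjusted p of 0.05 and 0 members were called after adjustment. Without wild type 2, the highest library for Ect2, the log2 fold change was -0.31 (unadjusted p = 0.582 in edgeR). Kif20a ranged over 6.87 to 31.2 CPM in wild type and 16.1 to 20.8 CPM in knockout and Anln, the anillin of the contractile ring, over 23.0 to 35.8 CPM in wild type and 22.9 to 38.4 CPM in knockout.

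Tubulin and chromatin genes are also used by cells that do not divide. Tuba1b, an alpha tubulin, was at 1092, 1919, 1568 and 2696 CPM in the wild types and 1219, 1328 and 3173 CPM in the knockouts (log2 fold change 0.07 ± 0.46 SE). Knockout 3 and wild type 4 were the high libraries, 1 in each genotype. Tubb5 ranged over 617 to 964 CPM in wild type and 574 to 941 CPM in knockout, and Stmn1, the tubulin-binding protein stathmin, over 228 to 419 CPM in wild type and 273 to 555 CPM in knockout. Hmgb2, a DNA-bending chromatin protein, was at 692, 1321, 913 and 2454 CPM and 712, 677 and 1475 CPM, with wild type 4 far above the others (log2 fold change -0.49 ± 0.50 SE). The log2 fold change of Hmgb2 was -0.01 without wild type 4 and -1.02 without knockout 3.

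**Figure D2:**
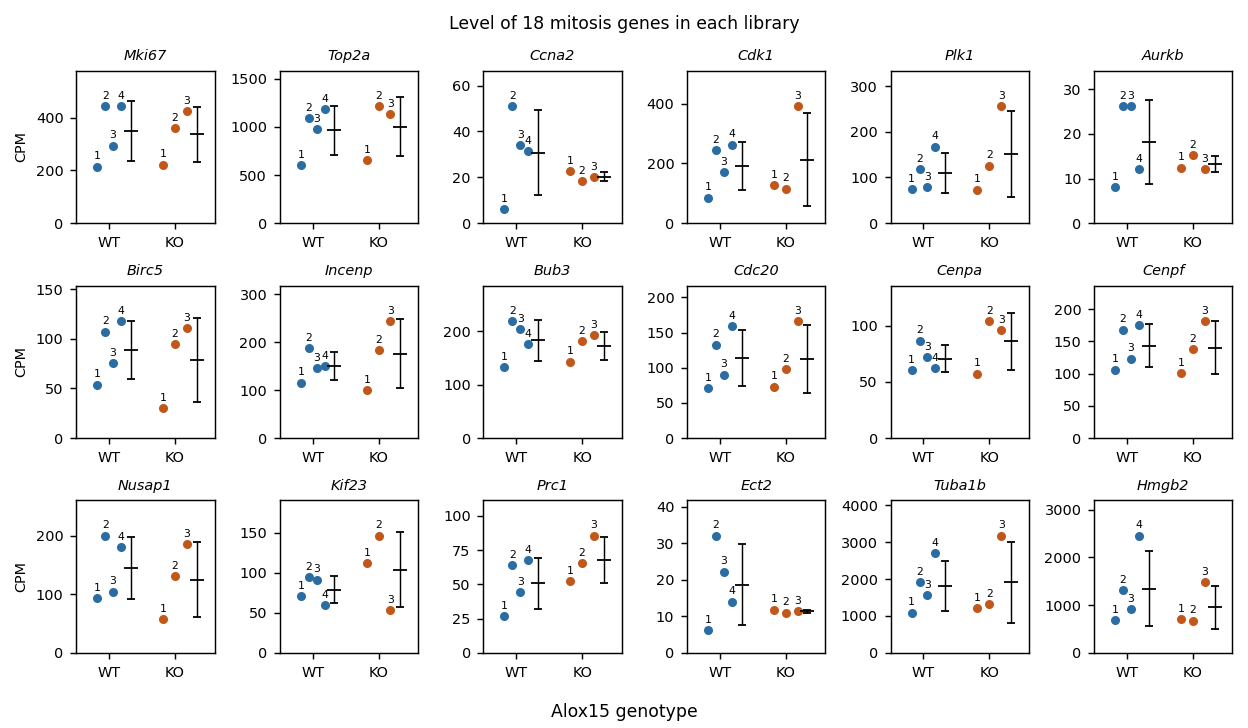
CPM (y axis, from 0) of 18 mitosis genes in each library by Alox15 genotype (x axis). Numbers are replicates, and the black bar beside each group is its mean with the SD (n = 4 wild type, n = 3 knockout). The groups overlap in all 18 panels, and replicate 1 of each genotype is low in most.

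Some members overlap neighbouring genes or have close relatives, with which reads may be shared. Kif20a overlaps Cdc23 on the opposite strand by 2327 bases, and Ccna2 overlaps Exosc9 by 863 bases. Prc1 lies over Rccd1, and Ube2c overlaps Tnnc2 by 1662 bases. Tuba1b and Tubb5 have near-identical relatives. How the authors' counting treated strand and shared reads is not given in the sources used here, and the levels of these genes are uncertain.

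The members as a group varied more within each genotype than between them. Their mean log2 CPM, the mitosis score, was 5.88, 7.07, 6.67 and 6.87 in wild types 1 to 4 and 6.16, 6.66 and 6.96 in knockouts 1 to 3. The wild types averaged 6.63 ± 0.52 (SD, n = 4) and the knockouts 6.595 ± 0.40 (SD, n = 3), a difference of -0.03. The span over the 7 libraries was 2.28-fold. Wild type 1 was the lowest library for 20 of the 36 members and knockout 1 for 13, so that 33 of 36 members, or 91.7%, had their lowest value in 1 of these 2 libraries, against 35.6% of all tested genes. Wild type 2 was the highest for 17 and knockout 3 for 10, or 75% of the members together, against 28.5% of all genes. These pairs of libraries were picked after the values were seen. With the 3 other scalings tried, 33 to 35 of the 36 had their lowest value and 29 to 33 their highest value in the same pairs, against 34.2 to 38.9% and 33.1 to 38% of all genes. The median ratio of highest to lowest library was 2.64 for the members and 2.5 for the 7482 tested genes in the same range of mean CPM (15.2 to 1856).

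**Figure D3:**
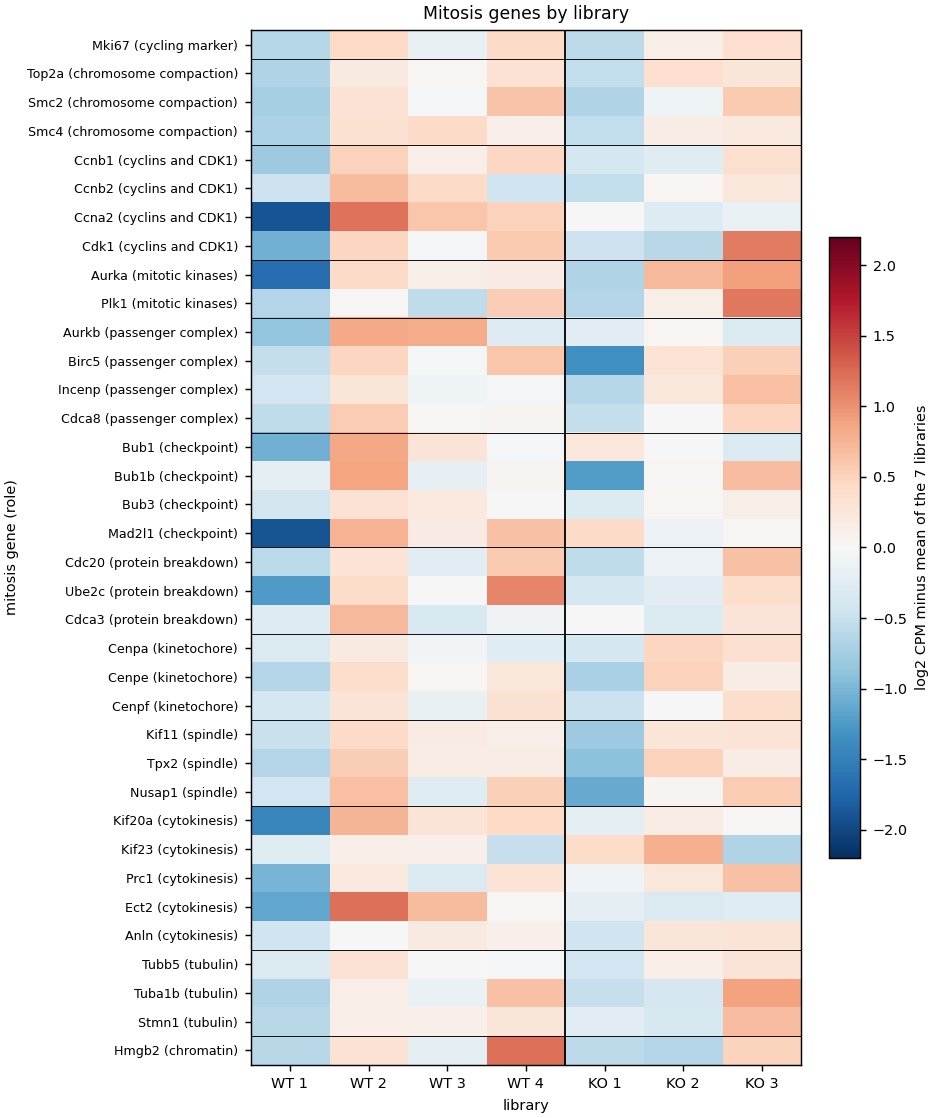
Log2 CPM of the 36 mitosis genes (rows, with their roles) in the 7 libraries (columns), each as the difference from the mean of its gene over the libraries. Blue is below and red above that mean. The columns of wild type 1 and knockout 1 are blue in most rows, with Kif23 among the exceptions in knockout 1.

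Wild type 1 and knockout 1 had the highest neutrophil marker sums (26120 and 22560 CPM) and the lowest mitosis scores (5.88 and 6.16). Wild type 2 and knockout 3 had the lowest neutrophil sums (2525 and 1983 CPM) and the highest scores (7.07 and 6.96). The T cell marker sum was 526, 646 and 721 CPM in wild type 1, knockout 1 and knockout 2, 910.2 and 1036 CPM in wild types 3 and 4, and 1214 and 1480 CPM in wild type 2 and knockout 3. Cd3d, a chain of the T cell receptor complex, was at 93.5, 202, 140 and 212 CPM in wild types 1 to 4 and 114.5, 153 and 441 CPM in knockouts 1 to 3, and Cd3e at 70.2, 131, 75.1 and 137 and 78.7, 95.9 and 130 CPM. The cytotoxic marker sum was 25.7 and 33.8 CPM in wild type 1 and knockout 1, and 71.6 and 102 CPM in wild type 2 and knockout 3. The B cell marker sum was 120 and 354 CPM in the former pair and 358 and 320 CPM in the latter, so knockout 1 was not low there. The macrophage marker sum was 494 and 1032 CPM in wild type 1 and knockout 1, and 148 and 188 CPM in wild type 2 and knockout 3. It was 387, 444 and 565 CPM in wild types 3 and 4 and knockout 2. In bulk RNA, fewer dividing cells and less transcript in each cannot be told apart. The part of cell mixture in the differences between libraries was not tested.

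**Figure D4:**
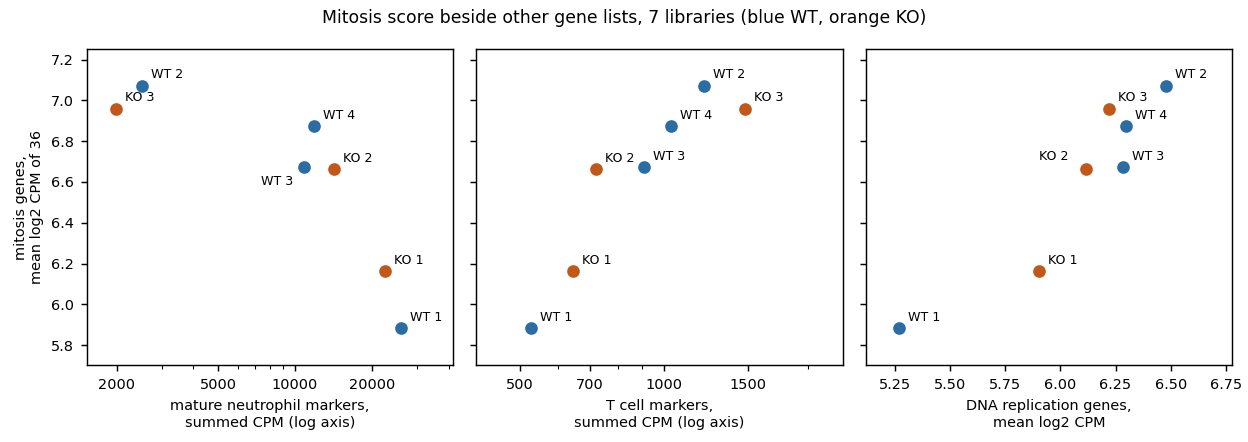
Mitosis score (y axis, mean log2 CPM of 36 genes) of each library beside the summed CPM of 9 mature neutrophil markers, the summed CPM of 10 T cell markers (both log axes) and the mean log2 CPM of 28 DNA replication genes. Wild types are blue and knockouts orange. Wild type 1 and knockout 1 lie at the high neutrophil and low mitosis end.

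Without wild type 2 and knockout 3, the 2 libraries poorest in neutrophil transcripts, the median log2 fold change of the members was -0.18 and 28 of 36 were below 0, with 0 called. With the description stem as a covariate, which leaves knockout 1 as the only knockout to set against wild type, the median was -0.575 and 32 of 36 were below 0. Birc5 (-1.56, unadjusted p = 0.0211) and Bub1b (-1.43, unadjusted p = 0.04) were then the members under an unadjusted p of 0.05, 2 of 36 beside 3.51% of all genes, and 0 were called. Knockout 1 was the knockout with the most neutrophil marker transcript (22560 CPM, against 2525 to 26120 CPM in the wild types). The part of neutrophil content in these fits was not tested. The median was 0.18 without knockout 1, 0.09 without wild type 2 and 0.03 without wild type 4, and -0.33 without knockout 3, so its sign depended on single libraries.

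**Figure D5:**
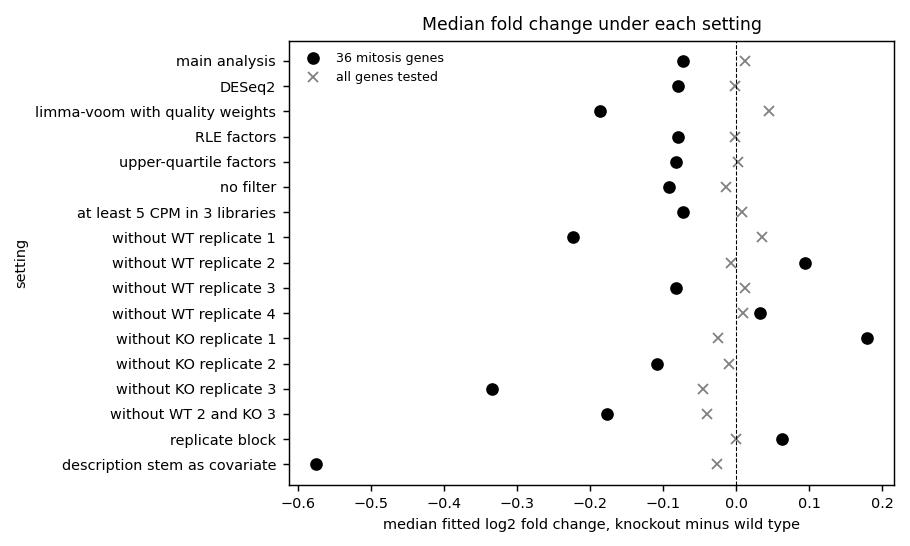
Median fitted log2 fold change (x axis, knockout minus wild type) of the 36 mitosis genes (dots) and of all tested genes (crosses) under each setting (y axis). The members' median runs from -0.575 with the description stem as a covariate to 0.18 without knockout 1.

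Of 71 further mitosis genes (kinetochore, condensin and cohesin, anaphase promoting complex, entry and spindle), 28 had a fitted value above 0 and 43 below, and 0 were called in either direction (median -0.04). Wee1, the kinase that holds CDK1 inactive, was at 18.8, 19.6, 23.4 and 14.6 CPM in the wild types and 30.9, 30.0 and 32.5 CPM in the knockouts. Its 3 knockouts lay above all 4 wild types, with a log2 fold change of 0.70 ± 0.31 (SE) and an unadjusted p of 0.0474 that was lost after adjustment (adjusted p = 0.99995 in edgeR). Of the 71 genes, 1 had groups that did not overlap and 1 was under an unadjusted p of 0.05. Over all tested genes, 1.57% were higher without overlap and 0.448% were higher at that p. Pttg1, or securin, which restrains separase, had -0.48 ± 0.35 (SE), and Ckap2, a spindle protein, -0.59 ± 0.43 (SE). The lowest value fell in wild type 1 or knockout 1 for 55 of the 71 genes, or 77.5%, and the highest in wild type 2 or knockout 3 for 30, or 42.3%.

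Of 28 DNA replication genes, 10 were above 0 and 18 below, 0 were called, and the median was -0.10. The lowest library was wild type 1 or knockout 1 for 25 of 28, or 89.3%, and the highest was wild type 2 or knockout 3 for 20, or 71.4%. The replication score was 5.27, 6.48, 6.28 and 6.30 in wild types 1 to 4 and 5.90, 6.12 and 6.22 in knockouts 1 to 3. Knockout 3 lay below wild types 3 and 4 here, and above both in the mitosis score. Mcm4, a subunit of the replicative helicase, was at 39.1, 123, 73.7 and 94.0 CPM in the wild types and 38.9, 46.9 and 53.6 CPM in the knockouts (log2 fold change -0.83 ± 0.38 SE). Slbp, the histone mRNA binding protein, had -0.28 ± 0.29 (SE). Tk1, thymidine kinase, was at most 7.96 CPM and had 0 counts in wild types 1 and 2 and knockout 3.

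Among 33 regulators of the cycle, 17 were above 0 and 16 below, 0 were called, and the median was 0.01. Lin52, a MuvB subunit, was low throughout, at 4.78, 3.92, 1.99 and 3.44 CPM in the wild types. The knockouts were at 0.389, 1.23 and 0.779 CPM (2, 4 and 4 counts), around the floor of 3 counts. The log2 fold change of Lin52 was -2.13 ± 0.98 (SE), with an unadjusted p of 0.0557 in edgeR (adjusted p = 0.99995). Its groups did not overlap, the 1 case among the 33 regulators, where 1.57% of all tested genes were lower without overlap. E2f4, an E2F factor of quiescent cells, had -0.63 ± 0.36 (SE) and E2f1, an activator of the S phase genes, 0.51 ± 0.36 (SE). The next 3 regulators were picked after their values were seen. Foxm1 and Mybl2, the latter encoding B-MYB, ranged over 29.3 to 50.1 CPM in wild type and 24.9 to 41.9 CPM in knockout and over 25.4 to 41.6 CPM in wild type and 26.4 to 38.3 CPM in knockout. Cdkn1a, the CDK inhibitor p21, had 1901, 149, 439 and 471.5 CPM in wild types 1 to 4 and 741, 699 and 216 CPM in knockouts 1 to 3. It was highest in wild type 1 and lowest in wild type 2, and its log2 fold change between genotypes was -0.42 ± 0.80 (SE).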

How the data were processed

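Polyadenylated RNA of 7 granulocyte samples was made into libraries with a QuantSeq kit, which reads transcript 3′ ends, per the labels' protocols. The authors deposited whole-number gene counts, and the submitters' processing notes name mm10, RSEM 1.2.3 and DESeq2. The aligner, the annotation, the strand setting and any rounding of RSEM's estimates are not given in the sources used here. Totals were 3228292 to 5657192 counts per library, and a floor of 3 counts was 0.53 to 0.929 CPM. Symbols came from GENCODE M21 (GRCm38), and 193 of 51789 rows matched none. Genes were filtered with filterByExpr (12506 kept, 99.6% of counts), scaled by TMM and tested with edgeR 4.0.16 (robust quasi-likelihood, Benjamini-Hochberg, threshold 0.05), knockout minus wild type. DESeq2 1.42.0 and limma 3.58.1 were alternatives, with other scalings and filters, libraries left out, a replicate block and the description stem as a covariate. CPM values use the TMM library sizes, and scores are mean log2 CPM with a prior count of 2. Methods were tested on simulated data. No molecular identifiers are stated, so intervals cover counting error only. No pair of libraries differed by as little as sampling noise. The members and all lists were chosen with earlier results of these data known. Singly described members are the most abundant of each role, Mki67, Top2a, Cdk1 and Birc5, and the 4 per direction with the smallest unadjusted p; other lists show up to 3 genes by that p, and markers the first 2 of a list. One marker list is not reported here.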

Additional observations from a re-analysis of the deposited data

Results flagged for a closer look

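In 2 of the 36 members, 1 wild-type library lay far from the other 3 on the log2 scale, with a gap to the nearest sample, as a share of the group's range, above Dixon's critical value for 4 samples. Aurka was at 4.18 CPM in wild type 1 and at 14.5 to 17.7 CPM in the other wild types, a share of 0.858. Stmn1 was at 228 CPM in wild type 1 and at 378 to 419 CPM in the others and only just passed the critical value. Chance flags about 1 in 20 such groups, and the members share the same 4 libraries.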

How the results depend on the processing

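The count of called members was 0 in all 16 alternatives. Over all genes, DESeq2 called 1 gene and limma-voom 0, with 213 and 534 at an unadjusted p under 0.05, where edgeR called 0 with 154. Members at an unadjusted p under 0.05 numbered 1 without wild type 2 and knockout 3 (2.82% of all genes), 2 with the description stem as a covariate (3.51%), and 0 to 2 with single libraries left out (2 without wild type 1, 2.49%). Members whose groups do not overlap numbered 1 without wild type 2 and knockout 3 (16.6% of all genes), and 0 to 3 with single libraries left out: 3 without wild type 1 (8.23%), 3 without knockout 1 (8.92%) and 1 without knockout 3 (12.4%). The members' median was -0.575 with the stem. Of 288 values of the 18 members described singly, 40 changed sign and 248 did not; the cause was not tested. The log2 fold changes that changed sign were, with limma-voom, -0.435 for Cdk1 and -0.311 for Tuba1b. Without wild type 2 and knockout 3 they were -0.0269 for Top2a, -0.557 for Cdk1, -0.153 for Plk1, -0.0012 for Incenp and -0.541 for Tuba1b. With the stem they were -0.557 for Top2a, -0.572 for Cdk1, -0.576 for Plk1, -0.574 for Incenp, -0.3 for Cenpa and -0.578 for Tuba1b. With single libraries left out the ranges were -0.585 to 0.212 for Birc5, -0.244 to 0.0333 for Bub3, -0.479 to 0.225 for Cdc20, -0.718 to 0.449 for Cdk1, -0.335 to 0.161 for Cenpf, -0.147 to 0.518 for Incenp, -0.332 to 0.175 for Mki67, -0.688 to 0.132 for Nusap1, -0.207 to 0.808 for Plk1, -0.118 to 0.289 for Top2a and -0.582 to 0.352 for Tuba1b.

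The replicate block gave 0.0942 for Mki67, 0.16 for Cdc20 and 0.0638 for Cenpf, with 0 genes called, a members' median of 0.06 and 80 genes at an unadjusted p under 0.05. Deviations of same-numbered libraries from their group means correlated at 0.349, -0.225 and -0.184 across genes, which are not independent replicates. The labels give a shared number only, and these correlations cannot decide whether samples were paired, so no pairing was read.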
